A study of Homo sapiens with 4 samples.

Results

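The genes described here are 39 members of the machinery that decides between survival and programmed cell death: the BCL2 family, the caspases, the death receptors with their decoys, and the adaptors, mitochondrial factors and inhibitors that connect them. They were chosen by name from a list of the pathway, with earlier results of these data known, and all 39 had a row among the 61806 genes of the count table. The cells were U118-MG, an established human glioma line, wild type in both groups per the labels. The SPNS2 group (2 libraries) had been infected with a lentivirus that carries SPNS2, which encodes an exporter of sphingosine 1-phosphate, in a pCDH-CMV-MCS-EF1-puro vector. The NC group (2 libraries) had been infected with the negative control of the same vector. All cells grew in DMEM with fetal bovine serum. The labels do not say whether a group is 1 clone or a pool of infected cells, nor whether its libraries came from separate cultures, so p-values measure the spread between these libraries, which may be technical.

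In the mitochondrial pathway of apoptosis, BH3-only proteins sense damage and neutralise the BCL2-like guardians, which otherwise hold the pore-forming effectors BAX and BAK in check. Opened mitochondria release cytochrome c, which assembles with APAF1 into the apoptosome and activates caspase-9, and SMAC and HTRA2, which relieve the caspase inhibitors of the IAP family. In the other pathway, death receptors such as FAS and the TRAIL receptors recruit FADD and caspase-8 at the membrane, where CFLAR limits activation, and BID links the 2 pathways. Glioma cells are known for high levels of several guardians and for resistance to TRAIL.

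The libraries held 31353373 and 34125159 counts in SPNS2 and 31513400 and 32992150 in NC. Spearman correlations across tested genes were 0.984 within SPNS2 and 0.984 within NC, and 0.947 to 0.949 between groups. SPNS2 itself was read 7381 and 8224 times in the SPNS2 libraries and 42 and 47 times in the NC libraries, with vector and cellular transcripts counted together. Of 8 glioma or astrocytic markers, VIM, CD44, PDGFRA and NES were tested, of which VIM rose, PDGFRA and NES fell and CD44 was not called, whereas S100B had no counts in any library and GFAP, SOX2 and OLIG2 had at most 8 counts in any. Summed markers of other cell types were low: epithelial markers reached 0.552 and 0.510 CPM in SPNS2 against 3.12 and 2.85 CPM in NC, leukocyte markers 0.422 and 0.210 against 0.530 and 0.921 CPM, endothelial markers 6.43 and 6.83 against 4.24 and 5.20 CPM, and neuronal markers 10.3 and 15.7 against 19.9 and 17.7 CPM. Epithelial KRT14 (1 of 4 tested), endothelial VWF and neuronal SYT1 fell, and endothelial PECAM1 (2 of 3 tested) and neuronal SNAP25 (2 of 3 tested) rose, whereas of 4 leukocyte markers LYZ alone was tested and was not called. RBFOX3 had no counts in any library. Their part in the results was not tested. Levels are CPM, the counts scaled to library size with TMM factors, and in bulk RNA fewer expressing cells and less RNA per cell cannot be told apart.

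Of the 39 genes, 35 had enough counts to be tested, 5 rose in the SPNS2 cells, 3 fell and 27 were not called. BAX, BCL2L12, CASP4, CASP10 and TNFRSF10B rose, and BCL2A1, BCL2L11 and TNFRSF11B fell. The call was an adjusted p under 0.05 in edgeR's quasi-likelihood test with Benjamini-Hochberg adjustment over all 17853 tested genes. These 8 genes are 22.9% of the members tested, beside 23.4% of all tested genes called, with 12.1% of all tested genes called higher and 11.3% lower. The share of members called was thus near the background. The median log2 fold change of the tested members was -0.07, beside -0.01 over all tested genes, and the median absolute value was 0.36 beside 0.38. The groups did not overlap at 19 of the 35 members, 54.3%, beside 66% of all tested genes. Without any 1 library, fewer members and fewer of all tested genes were called. The members called then were in part others than these 8 genes. They included MCL1 without NC replicate 1, XIAP without NC replicate 2, and BMF and CFLAR without SPNS2 replicate 1. TNFRSF11B was the only member called under each of the 14 alternative settings. With the median shift of each chromosome arm removed, 4 of the 35 tested members were called (BCL2A1, CASP4, CASP10 and TNFRSF11B). Under that setting 18.3% of all tested genes were called.

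**Figure D1:**
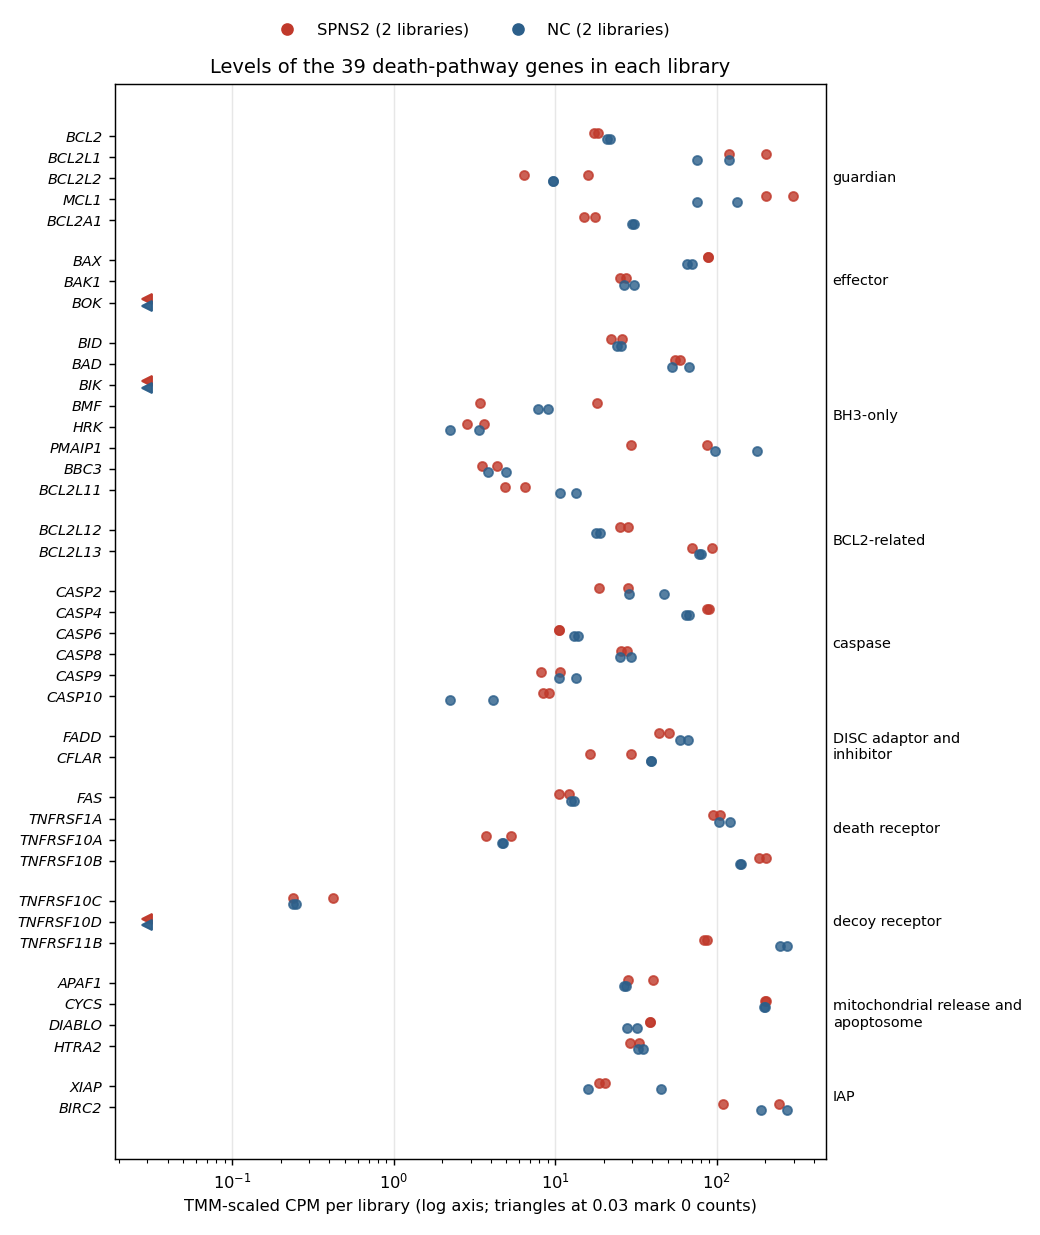
Levels of the 39 genes in each library, as TMM-scaled CPM on a log axis, grouped by role; red points are the SPNS2 libraries, blue points the NC libraries, and triangles mark genes with 0 counts. TNFRSF11B lies at 83.7 and 87.1 CPM in SPNS2 and at 273 and 247 CPM in NC, while CYCS lies between 195 and 202 CPM in all 4 libraries.

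**Figure D2:**
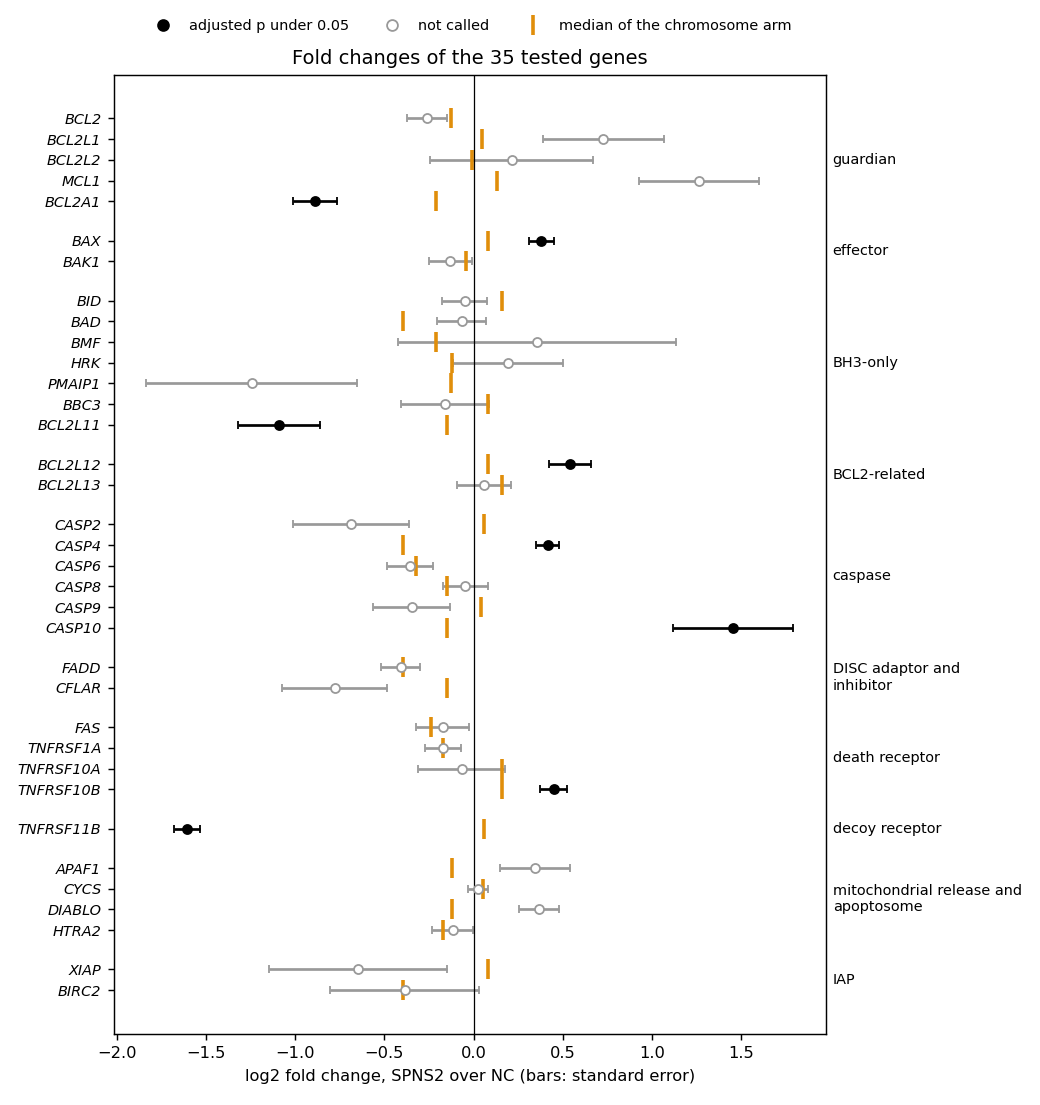
Log2 fold change of SPNS2 over NC for the 35 tested genes, with the standard error as bars; filled points have an adjusted p under 0.05 and orange ticks give the median log2 fold change of the gene's chromosome arm. The values run from -1.61 (TNFRSF11B) to 1.46 (CASP10), and CASP4 lies above 0 on an arm, 11q, with a median of -0.39.

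Among the 5 guardians, BCL2A1 fell and the other 4 were not called. BCL2A1 (ENSG00000140379, chromosome 15, 79960889 to 79971446 on GRCh38), a short-lived guardian known as a target of NF-kB, was at 17.6 and 15.1 CPM in the SPNS2 libraries and at 30.8 and 29.9 CPM in the NC libraries. Both SPNS2 libraries lay below both NC libraries, and its log2 fold change was -0.89 (SE 0.12, edgeR adjusted p = 0.0137). The call was lost without NC replicate 1 (edgeR adjusted p = 0.063) and without NC replicate 2 (edgeR adjusted p = 0.0606).

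MCL1 (chromosome 1, 150574551 to 150579738) encodes a short-lived guardian that binds and restrains BAK. MCL1 was at 203 and 298 CPM in SPNS2 and at 133 and 75.6 CPM in NC. The groups did not overlap, but the NC libraries differed 1.76-fold, and the log2 fold change of 1.26 (SE 0.34) was not called (edgeR adjusted p = 0.0626). MCL1 was called by DESeq2 (adjusted p = 0.00054) and without NC replicate 1 (log2 fold change 1.73, edgeR adjusted p = 0.0488). BCL2L1, which encodes BCL-XL, was at 201 and 119 CPM in SPNS2 and at 75.0 and 118.3 CPM in NC, so that the lower SPNS2 library and the higher NC library nearly met (log2 fold change 0.73, SE 0.34, edgeR adjusted p = 0.199). BCL2, the founding member of the family, was at 18.5 and 17.3 CPM in SPNS2 and 20.9 and 21.99 CPM in NC, with little spread within either group (log2 fold change -0.26, SE 0.11, edgeR adjusted p = 0.166). BCL2L2, which encodes BCL-W, was at 6.40 and 16.1 CPM in SPNS2 and at 9.64 and 9.75 CPM in NC, and its SPNS2 libraries enclosed the NC values. Its exons share 813 bases with those of the read-through gene BCL2L2-PABPN1 on the same strand, and the sum of both genes was 21.4 and 33.9 CPM in SPNS2 and 26.7 and 26.7 CPM in NC.

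Promoter windows are shown for BCL2A1, CFLAR and BIRC3, of which BIRC3 is not a member. These 3 survival genes are described as NF-kB targets and had lower fitted levels in the SPNS2 cells. The changes of BCL2A1 and BIRC3 were called. Direction was part of this choice, so these genes do not show how NF-kB targets changed as a set, which was not tested. Genes with higher fitted levels were left out, among them BCL2L1 (log2 fold change 0.73, not called) and TRAF2 (0.81, called). The sequences are RefSeq windows on GRCh38.p14 from 250 bases before to 50 bases after a transcript start, at chr15:79971147-79971446 on the minus strand, chr2:201118466-201118765 on the plus strand and chr11:102317234-102317533 on the plus strand. Capitals mark matches to the NF-kB consensus, searched on both strands.
BCL2A1: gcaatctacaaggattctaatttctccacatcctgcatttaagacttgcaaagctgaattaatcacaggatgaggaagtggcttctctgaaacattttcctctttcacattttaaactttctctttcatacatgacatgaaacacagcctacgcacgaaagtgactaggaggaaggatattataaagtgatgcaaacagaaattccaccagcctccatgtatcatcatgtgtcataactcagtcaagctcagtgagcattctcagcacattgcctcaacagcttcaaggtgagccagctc
CFLAR: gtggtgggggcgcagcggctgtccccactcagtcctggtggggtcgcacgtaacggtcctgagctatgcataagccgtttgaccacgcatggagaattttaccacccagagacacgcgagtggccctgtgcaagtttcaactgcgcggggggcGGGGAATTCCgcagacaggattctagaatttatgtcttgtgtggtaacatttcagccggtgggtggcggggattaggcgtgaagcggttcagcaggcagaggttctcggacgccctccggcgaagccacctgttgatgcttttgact
BIRC3: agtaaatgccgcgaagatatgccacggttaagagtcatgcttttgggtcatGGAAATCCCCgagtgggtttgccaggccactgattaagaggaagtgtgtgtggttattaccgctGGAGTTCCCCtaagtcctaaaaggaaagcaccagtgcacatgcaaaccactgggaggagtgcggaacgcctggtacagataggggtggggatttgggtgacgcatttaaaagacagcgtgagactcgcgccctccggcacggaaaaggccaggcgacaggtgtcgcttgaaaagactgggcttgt
The BIRC3 window held 2 matches and the BCL2A1 window no match in these letters. CFLAR had 4 windows, of which the window shown held 1 match and the other 3 held none. Of 30 members with a window (56 windows in all), CFLAR, FAS and BMF had a match, 5.36% of the windows, beside 5.91% of 35116 windows of the same length.

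Of the effectors, which perforate the outer mitochondrial membrane, BAX rose and BAK1 was not called. BAX (ENSG00000087088, chromosome 19, 48954815 to 48961798) was at 88.1 and 88.1 CPM in the SPNS2 libraries and at 69.9 and 65.4 CPM in the NC libraries. The SPNS2 libraries were nearly identical and both above NC, and the log2 fold change came to 0.38, or 1.30-fold (SE 0.069, edgeR adjusted p = 0.0257). The BAX call was lost in the absence of SPNS2 replicate 1 (edgeR adjusted p = 0.0888) or 2 (0.0957) or of NC replicate 1 (0.0734) or 2 (0.108), and with arm medians removed (0.0507), while its log2 fold change stayed between 0.30 and 0.43. BAK1 was at 27.4 and 25.3 CPM in SPNS2 and at 26.7 and 30.9 CPM in NC, and its groups overlapped (log2 fold change -0.13, SE 0.12, edgeR adjusted p = 0.498). BOK, a less common effector, had no counts in any library, which allows a level of up to 0.0468 CPM in SPNS2 and 0.0457 CPM in NC (3 counts over the group, counting error only).

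Of the 8 BH3-only genes, 7 were tested, BCL2L11 fell and 6 were not called. BCL2L11 (ENSG00000153094, chromosome 2, 111119378 to 111168447) encodes BIM, a BH3-only protein that can bind all main guardians. It was at 4.87 and 6.50 CPM in SPNS2 and at 13.5 and 10.7 CPM in NC, with both SPNS2 libraries lower. The log2 fold change was -1.09 (SE 0.23, edgeR adjusted p = 0.0365), a 2.13-fold lower level. It was not called in the absence of SPNS2 replicate 1 (-0.88, edgeR adjusted p = 0.109) or 2 (-1.31, 0.0612), of NC replicate 1 (-0.91, 0.131) or 2 (-1.25, 0.0769), or with arm medians removed (-0.94, 0.0571). Exons of BCL2L11 share 727 bases with MIR4435-2HG on the opposite strand, a long non-coding RNA gene that rose (log2 fold change 0.38, SE 0.076, edgeR adjusted p = 0.033, lost without any 1 of the 4 libraries at 0.0916 to 0.127 and without a low-count filter at 0.0503), and the strand setting of the counting is not given in the sources used here.

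PMAIP1, which encodes NOXA, a BH3-only protein directed mainly at MCL1, had the lowest fitted value of the BH3-only genes but a wide spread. It was at 29.4 and 86.5 CPM in SPNS2 and at 177 and 97.7 CPM in NC. The groups did not overlap, yet the higher SPNS2 library came close to the lower NC library, and the log2 fold change of -1.24 (SE 0.59) was not called (edgeR adjusted p = 0.206). BMF, a BH3-only protein bound to the cytoskeleton in healthy cells, was at 3.41 and 18.3 CPM in SPNS2 and at 7.86 and 9.06 CPM in NC, the widest ratio within a group of any tested member (5.35-fold in SPNS2). Its fitted direction depended on the library kept: the log2 fold change was -1.31 (edgeR adjusted p = 0.0555) without SPNS2 replicate 2 and 1.13 (edgeR adjusted p = 0.0458) without SPNS2 replicate 1.

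The other 4 BH3-only genes tested were not called. BAD, which is switched off by survival kinases, was at 59.3 and 55.5 CPM in SPNS2 and 52.9 and 67.4 CPM in NC. BID, which caspase-8 cleaves, was at 25.9 and 22.03 CPM in SPNS2 and 25.6 and 24.01 CPM in NC. BBC3, which encodes PUMA, was at 4.39 and 3.51 CPM in SPNS2 and 4.99 and 3.83 CPM in NC. HRK, known from neurons, was at 3.61 and 2.85 CPM in SPNS2 and 2.25 and 3.39 CPM in NC. Groups overlapped at all 4 of these genes, with edgeR adjusted p-values of 0.686 to 0.812. BIK had no counts in any library, with the same limits as BOK.

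Per length, the make-up of the guardians differed between libraries. Levels here are CPM per kb of the union of annotated exons, which understates genes with many long isoforms. MCL1 and BCL2L1 together held most of the guardians' level in each library of both groups. MCL1 was at 46.4 and 68.1 CPM per kb in SPNS2 and at 30.4 and 17.3 CPM per kb in NC. BCL2L1 was at 60.7 and 36.0 CPM per kb in SPNS2 and at 22.6 and 35.7 CPM per kb in NC. Neither gene was called in the main test (edgeR adjusted p = 0.0626 for MCL1 and 0.199 for BCL2L1). In each group the library with more MCL1 had less BCL2L1, a pattern seen in only 2 libraries per group and not tested. The sum over the 5 guardians was 126 and 123 CPM per kb in SPNS2 and 85.3 and 84.6 CPM per kb in NC, so the sums differed little within a group. BCL2A1 made up 12.8% and 11.3% of that sum in SPNS2 and 33.1% and 32.4% in NC. The effectors summed to 46.4 and 45.5 CPM per kb in SPNS2 and 39.1 and 39.2 CPM per kb in NC, and BAX made up 73.4% and 74.8% of this in SPNS2 and 69.1% and 64.4% in NC. The BH3-only genes summed to 57.0 and 82.0 CPM per kb in SPNS2 and 121 and 93.5 CPM per kb in NC, and PMAIP1 and BAD were the most abundant in each library. No test was made on these sums, because 2 libraries against 2 allow no exact permutation p under 0.333.

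**Figure D3:**
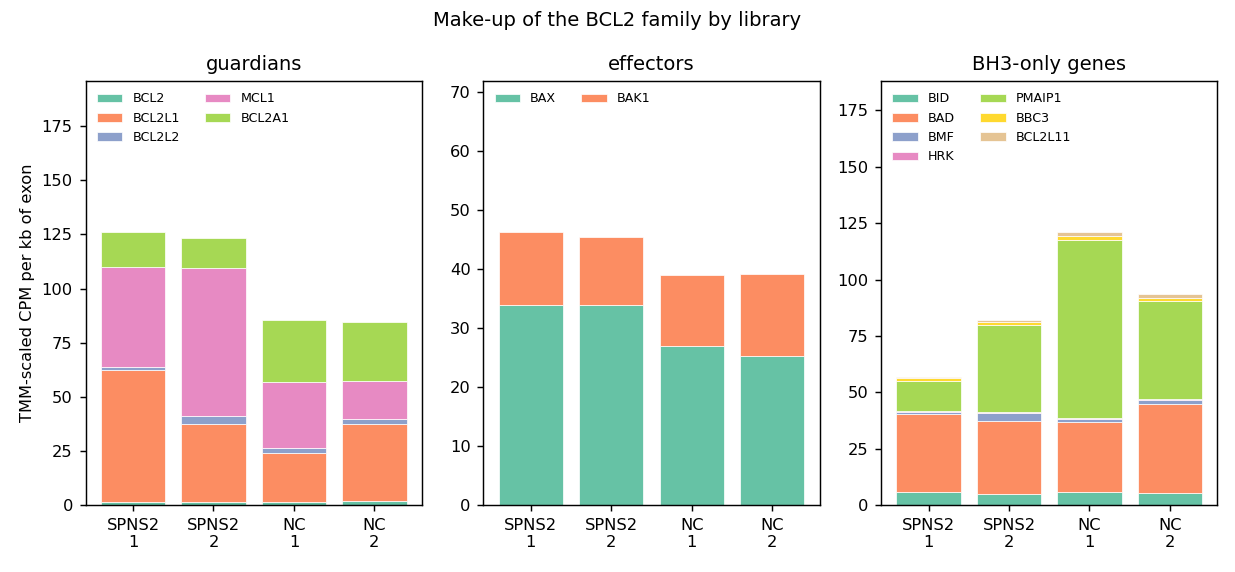
TMM-scaled CPM per kb of exon in each library, stacked by gene, for the guardians, the effectors and the BH3-only genes with counts; the 3 panels have separate axes that start at 0. The guardian stacks reach 126 and 123 in SPNS2 and 85.3 and 84.6 in NC, with the band of BCL2A1 smaller and the band of MCL1 larger in both SPNS2 libraries.

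The atypical relatives BCL2L12 and BCL2L13 differed in their result. BCL2L12 (ENSG00000126453, chromosome 19, 49665142 to 49673916), a BCL2-like protein described in glioblastoma as an inhibitor of cell death, was at 28.4 and 25.3 CPM in SPNS2 and at 18.9 and 18.01 CPM in NC. It rose (log2 fold change 0.54, SE 0.12, edgeR adjusted p = 0.0377), and both SPNS2 libraries were above both NC libraries. Its exons share 734 bases with IRF3 on the opposite strand, an interferon regulatory factor whose gene (49659569 to 49665875) begins inside BCL2L12. IRF3 was at 40.6 and 41.4 CPM in SPNS2 and at 27.1 and 25.6 CPM in NC (log2 fold change 0.64, SE 0.091, edgeR adjusted p = 0.0148), so both genes of the overlap were higher and their reads cannot be told apart with certainty. The calls of both were lost without each library in turn (edgeR adjusted p = 0.0779 to 0.143 for BCL2L12 and 0.0547 to 0.0656 for IRF3), and that of BCL2L12 also without a low-count filter (0.0562) and with arm medians removed (0.0615). BCL2L13, a mitochondrial protein linked to mitophagy, was at 70.4 and 93.7 CPM in SPNS2 and at 77.3 and 80.1 CPM in NC, with overlapping groups (log2 fold change 0.06, SE 0.15, edgeR adjusted p = 0.808).

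Of the 6 caspases, CASP4 and CASP10 rose and 4 were not called. CASP4 (ENSG00000196954, chromosome 11, 104942866 to 104969436), an inflammatory caspase that senses bacterial lipopolysaccharide in the cytosol, was at 89.1 and 87.1 CPM in SPNS2 and at 67.5 and 64.5 CPM in NC. Its log2 fold change was 0.42 (SE 0.065, edgeR adjusted p = 0.0186), with little spread within the groups. The chromosome arm 11q had a median log2 fold change of -0.39, and with arm medians removed CASP4 stood at 0.81 (edgeR adjusted p = 0.00476). The call was lost without NC replicate 1 (edgeR adjusted p = 0.0695), NC replicate 2 (0.0873), SPNS2 replicate 1 (0.0739) or SPNS2 replicate 2 (0.0699). CASP1, the interleukin 1 converting enzyme at 105025443 to 105035250 on the same strand, was at 39.9 and 34.6 CPM in SPNS2 and 32.8 and 29.9 CPM in NC and was not called (log2 fold change 0.25, edgeR adjusted p = 0.209), and CASP5, between them, had no counts.

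CASP10, a relative of caspase-8 at death receptors, had the highest fold change of the members. It was read 282 and 279 times in the SPNS2 libraries and 72 and 139 times in the NC libraries, which is 9.16 and 8.36 CPM in SPNS2 and 2.25 and 4.13 CPM in NC. Both SPNS2 libraries were higher, although the NC libraries differed 1.84-fold, and the log2 fold change was 1.46 (SE 0.34, edgeR adjusted p = 0.0451). It lost its call without NC replicate 1 (log2 fold change 1.08, edgeR adjusted p = 0.0758), SPNS2 replicate 1 (1.41, 0.13) and SPNS2 replicate 2 (1.52, 0.113), and without a low-count filter (1.46, 0.0553). CASP10 (201182881 to 201229406) lies between CFLAR (201116104 to 201176687) and CASP8 (201233443 to 201287711) on chromosome 2, all on the plus strand, with gaps of 6.2 and 4 kb. The 3 neighbours had fitted log2 fold changes of -0.78 (CFLAR), 1.46 (CASP10) and -0.05 (CASP8), and only that of CASP10 was called.

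The remaining caspases were not called. CASP8, the initiator at death receptors, was at 25.4 and 27.7 CPM in SPNS2 and 25.2 and 29.6 CPM in NC, within the spread of its replicates. CASP9, the initiator of the apoptosome, was at 8.12 and 10.7 CPM in SPNS2 and 10.5 and 13.4 CPM in NC (edgeR adjusted p = 0.318). CASP6, an executioner, was at 10.5 and 10.6 CPM in SPNS2 and 13.9 and 13.1 CPM in NC (log2 fold change -0.36, SE 0.13, edgeR adjusted p = 0.122). Its SPNS2 libraries were both lower, but its arm 4q had a median of -0.32, and with arm medians removed it stood at -0.04. CASP2, a caspase of genotoxic stress, was at 28.3 and 18.7 CPM in SPNS2 and 47.0 and 28.7 CPM in NC, and its libraries differed 1.51-fold within SPNS2 and 1.64-fold within NC, beside a 1.61-fold difference between the groups (edgeR adjusted p = 0.202).

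At the death-inducing complex below the receptors, neither FADD nor CFLAR was called by edgeR, with 1 of the 2 at an unadjusted p under 0.05. DESeq2 called 2 and limma-voom called 0, where they called 28.2% and 23.8% of all tested genes, beside 23.4% by edgeR. FADD, the adaptor that bridges receptors and caspase-8, was at 50.5 and 44.2 CPM in SPNS2 and at 59.1 and 66.6 CPM in NC. Its groups did not overlap (log2 fold change -0.41, SE 0.11, edgeR adjusted p = 0.0642), and it was called by DESeq2 (adjusted p = 0.0274) and with library totals only (edgeR adjusted p = 0.0493). FADD lies on 11q, and with arm medians removed its log2 fold change was -0.02. CFLAR, which encodes the caspase-8 inhibitor FLIP, was at 29.4 and 16.3 CPM in SPNS2 and at 39.2 and 39.2 CPM in NC. The NC libraries were nearly identical and the SPNS2 libraries lower by unequal amounts (log2 fold change -0.78, SE 0.30, edgeR adjusted p = 0.136). CFLAR was called by DESeq2 (adjusted p = 0.0462) and without SPNS2 replicate 1 (log2 fold change -1.25, edgeR adjusted p = 0.0211).

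Of the 4 death receptors, TNFRSF10B rose and 3 were not called. TNFRSF10B (ENSG00000120889, chromosome 8, 23020133 to 23069179) encodes the TRAIL receptor DR5. It was at 202 and 182 CPM in SPNS2 and at 142 and 139 CPM in NC, with both SPNS2 libraries higher (1.37-fold, log2 fold change 0.45, SE 0.075, edgeR adjusted p = 0.0211). The call was lost without NC replicate 1 (edgeR adjusted p = 0.0837), NC replicate 2 (0.0945) and SPNS2 replicate 1 (0.0569), and with arm medians removed (log2 fold change 0.29, edgeR adjusted p = 0.064). TNFRSF10A, the other death-inducing TRAIL receptor, DR4, was at 3.74 and 5.31 CPM in SPNS2 and at 4.77 and 4.70 CPM in NC and did not pass the test (edgeR adjusted p = 0.872). FAS was at 12.2 and 10.5 CPM in SPNS2 and at 13.2 and 12.5 CPM in NC (edgeR adjusted p = 0.452). TNFRSF1A, the main receptor of tumour necrosis factor, was at 105 and 94.5 CPM in SPNS2 and at 120.0 and 104 CPM in NC (edgeR adjusted p = 0.295).

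The decoy receptors bind ligand without a working death domain. TNFRSF11B (ENSG00000164761, chromosome 8, 118923557 to 118952200) encodes osteoprotegerin, a secreted decoy for RANKL that also binds TRAIL, and was the member with the lowest fold change. It was read 2575 and 2906 times in the SPNS2 libraries and 8745 and 8328 times in the NC libraries, or 83.7 and 87.1 CPM in SPNS2 and 273 and 247 CPM in NC. All of the SPNS2 values lay far below those of NC, a 3.05-fold lower level (log2 fold change -1.61, SE 0.076, edgeR adjusted p = 0.00158). Leaving out single libraries gave log2 values of -1.68 to -1.54. TNFRSF10C, a TRAIL decoy anchored in the membrane, had only 13 and 8 counts in SPNS2 and 8 and 8 counts in NC and was not tested. Its exons share 485 bases with ENSG00000284948 on the same strand. That gene had 139 and 170 counts in SPNS2 and 157 and 189 counts in NC, so the TNFRSF10C counts are uncertain. TNFRSF10D, the other membrane TRAIL decoy, had no counts in any library. The 4 TRAIL receptor genes lie within 205 kb of chromosome 8, and of this cluster TNFRSF10B alone was above 10 CPM in any library.

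Among the factors released from mitochondria and the apoptosome, edgeR called none of 4 tested genes, DESeq2 and limma-voom called 0, and 1 had an unadjusted p under 0.05. CYCS, which encodes cytochrome c, was the member with the least spread, at 198 and 202 CPM in SPNS2 and at 199 and 195 CPM in NC (log2 fold change 0.02, SE 0.054, edgeR adjusted p = 0.78). DIABLO, which encodes SMAC, the antagonist of IAPs, was at 38.8 and 38.8 CPM in SPNS2 and at 27.8 and 32.3 CPM in NC. Its groups did not overlap, but the difference was not called (log2 fold change 0.37, SE 0.11, edgeR adjusted p = 0.0842). APAF1, the scaffold of the apoptosome, was at 40.5 and 28.3 CPM in SPNS2 and at 26.5 and 27.6 CPM in NC (edgeR adjusted p = 0.275). HTRA2, a mitochondrial serine protease, was at 33.2 and 29.04 CPM in SPNS2 and at 35.1 and 32.5 CPM in NC (edgeR adjusted p = 0.517), while LOXL3, whose exons share 625 bases with it on the opposite strand, fell (log2 fold change -1.15, SE 0.12, edgeR adjusted p = 0.00801).

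Neither IAP gene was called by edgeR (0 of 2 at an unadjusted p under 0.05, and 0 by DESeq2 and limma-voom). XIAP, the direct inhibitor of caspases, was at 18.6 and 20.3 CPM in SPNS2 and at 45.0 and 16.1 CPM in NC, and its NC libraries enclosed the SPNS2 values. The fitted log2 fold change was -0.65 (SE 0.50, edgeR adjusted p = 0.412), -1.21 without NC replicate 2 (edgeR adjusted p = 0.0263) and 0.28 without NC replicate 1 (0.349). BIRC2, which encodes the ubiquitin ligase cIAP1, was the most abundant per length of the pair, at 110 and 242 CPM in SPNS2 and at 189 and 271 CPM in NC, with overlapping groups (edgeR adjusted p = 0.558). Its neighbour BIRC3 (102317450 to 102339403, 7.8 kb before BIRC2 on 11q), which encodes cIAP2, was at 84.5 and 73.8 CPM in SPNS2 and at 183 and 159 CPM in NC and fell 2.16-fold (log2 fold change -1.11, SE 0.11, edgeR adjusted p = 0.00649). With arm medians removed BIRC3 stood at -0.72 (edgeR adjusted p = 0.0199).

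Several members differed widely between libraries of the same group. Of the 27 members with a mean of at least 10 CPM in each group, 7 had a ratio over 1.5 between the libraries of at least 1 group, which is 25.9%, beside 9.3% of 9477 such genes in all. For a ratio over 2 the shares were 11.1% and 3.91%. Among all tested members the ratio within a group exceeded 1.5 at 11: BMF, PMAIP1, XIAP, BCL2L2, BIRC2, CASP10, CFLAR, MCL1, BCL2L1, CASP2 and HRK. Of these, CASP10 was the only one called. The libraries that stood apart were not always the same. Where the ratio within SPNS2 was over 1.5, replicate 1 was lower at BMF, PMAIP1, BCL2L2 and BIRC2. It was higher at BCL2L1, CFLAR and CASP2. Over that ratio within NC, replicate 1 was higher at XIAP, PMAIP1, MCL1 and CASP2 and lower at CASP10, BCL2L1 and HRK. At CYCS, BAX, CASP4 and BCL2, in contrast, the libraries of a group agreed within 1.07-fold.

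**Figure D4:**
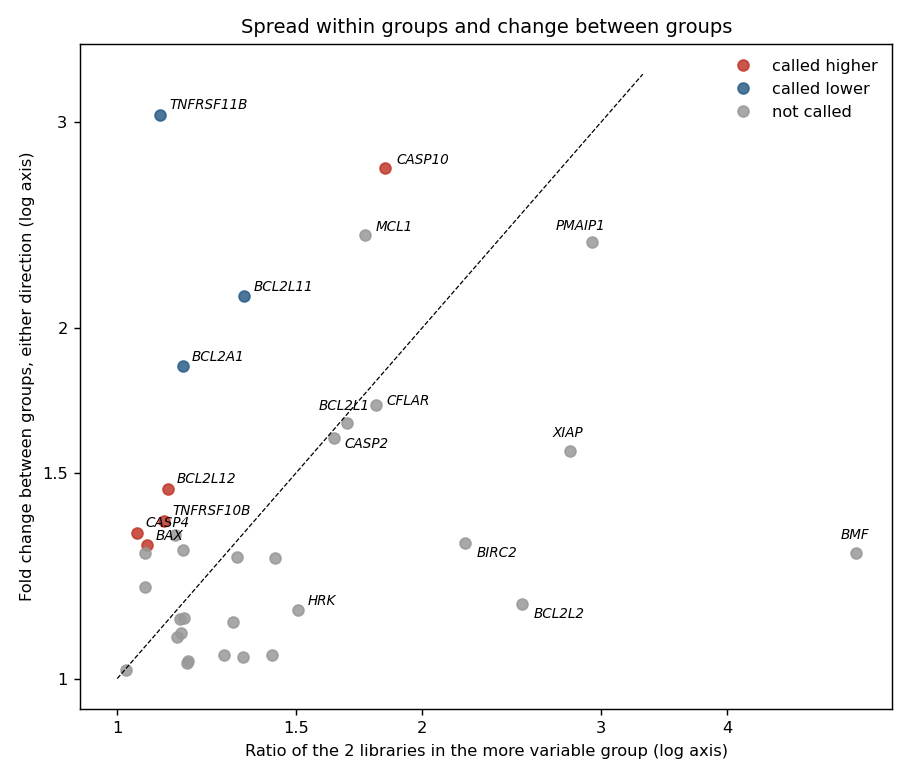
For each tested gene, the ratio of the 2 libraries in the more variable group (horizontal, log axis) against the fold change between groups in either direction (vertical, log axis), with the line of equal values dashed and called genes in red (higher in SPNS2) or blue (lower in SPNS2). The 8 called genes lie above the line, whereas BMF (5.35-fold within SPNS2), PMAIP1 (2.94), XIAP (2.80 within NC), BCL2L2 (2.51) and BIRC2 (2.21) lie below it. A call already weighs the change between groups against the spread within them, so this position follows in part from the test.

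In a list of 34 other apoptosis genes, 23 were tested, 4 rose, 3 fell and 16 were not called (30.4% called, median log2 fold change 0.20). Over all tested genes 23.4% were called, and the median log2 fold change was -0.01. TNFRSF21, which encodes death receptor 6, rose 14.3-fold, to 68.9 and 72.3 CPM in SPNS2 against 4.37 and 5.50 CPM in NC (log2 fold change 3.84, SE 0.15, edgeR adjusted p = 0.00115). VDAC1, an ion channel of the outer mitochondrial membrane, rose 1.84-fold, to 419 and 422 CPM in SPNS2 against 217 and 241 CPM in NC (edgeR adjusted p = 0.00411). VDAC1 lies on 5q, and its log2 fold change of 0.88 became 0.45 with arm medians removed (edgeR adjusted p = 0.021). TRAF2, an adaptor of tumour necrosis factor receptors that binds cIAPs, rose to 27.9 ± 1.15 CPM in SPNS2 against 15.9 ± 1.44 CPM in NC (SD, n = 2, edgeR adjusted p = 0.0164). BIRC6, a giant IAP, fell to 155 ± 7.01 CPM in SPNS2 against 213 ± 7.72 CPM in NC (SD, n = 2, edgeR adjusted p = 0.0155). The TRAF2 call was lost without any 1 of the 4 libraries (edgeR adjusted p = 0.0504 to 0.0672), and the BIRC6 call without NC replicate 1 (0.0737), NC replicate 2 (0.0553) and SPNS2 replicate 1 (0.0623) and with arm medians removed (0.0523). The death ligands TNFSF10, FASLG and TNF had at most 10 counts in any library and were not tested.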

How the data were processed

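The authors deposited raw counts per Ensembl gene for the 4 libraries. The submitters' processing notes name HISAT2 2.2.1 and featureCounts 0.3, with Trim Galore 0.6.9 and the build hg38. Annotation release, strandedness and treatment of reads with several matches: not given in the sources used here. Counts of genes that overlap are therefore uncertain. In GENCODE 29, exons of 21 of the 39 members overlap another gene of the table. 1 row of annotation text without counts was left out. Positions, exon lengths and arms (with approximate centromeres) came from GENCODE 29, and promoter windows from RefSeq on GRCh38.p14.

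Genes were kept by filterByExpr (minimum count 10, minimum total 15), scaled by TMM and compared with edgeR 4.0.16 (R 4.3.3), using its quasi-likelihood test (two-sided), with the group as the only term and a call at an adjusted p under 0.05. The standard error is the log2 fold change divided by the square root of F. The script was tested on simulated data. Alternatives were DESeq2 1.42.0, limma-voom (limma 3.58.1) and the settings in the closing section. Named were all members, up to 5 called genes of each further list, the markers and overlapping genes. Members and lists were chosen with earlier results of these data known. A few genes and a list built on them are not reported here.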

Additional observations from a re-analysis of the deposited data

How the results depend on the processing

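Over all tested genes, 23.4% were called in the main test, 28.2% with DESeq2 and 18.3% with arm medians removed. Without a low-count filter, 11% of 30321 genes were called. Against 5 members called higher and 3 lower, DESeq2 called 6 higher and 5 lower. Without that filter 3 members were higher, and with arm medians removed 2 were higher. Without 1 library, fewer members were called in each case. MCL1, XIAP, BMF and CFLAR were each called without 1 of the libraries, although not in the main test. Over all genes, 4171 were called, and 1712 to 2144 without 1 library. With a replicate block, 0 members were higher, 2 were lower (BCL2A1 and TNFRSF11B) and 1976 genes were called by edgeR. The labels share replicate numbers between groups but do not say that they pair libraries. The deviations of same-numbered libraries had a correlation of -0.08. A batch shared at some genes was not tested, so the block is given beside the main test.

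Fitted directions were the same under all 14 alternatives for 20 of the 35 tested members, including all 8 called. The others, none called in the main test, changed sign somewhere. With arm medians removed the log2 fold changes were 0.33 (BAD), -0.10 (BCL2L13), 0.10 (CASP8), 0.0628 (FAS), 0.0026 (TNFRSF1A), -0.0277 (CYCS), 0.0542 (HTRA2) and 0.0067 (BIRC2). CYCS was -0.0218 with upper-quartile factors and -0.0314 with library totals, and BMF -0.0596 with limma-voom and -0.0643 with the replicate block. Without 1 library in turn the ranges were -0.60 to 0.75 (BCL2L2), -0.15 to 0.0647 (BID), -0.23 to 0.12 (BAD), -1.31 to 1.13 (BMF), -0.0713 to 0.52 (HRK), -0.34 to 0.0408 (BBC3), -0.16 to 0.27 (BCL2L13), -0.16 to 0.0706 (CASP8), -0.34 to 0.18 (TNFRSF10A), -1.21 to 0.28 (XIAP) and -1.06 to 0.0909 (BIRC2). Why these signs changed was not tested. Fewer libraries leave fewer degrees of freedom, which bears on the calls and not on the signs. Counts of 72 to 139 for CASP10 in NC and 8 to 13 for TNFRSF10C limit what these libraries can show for low genes.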
